A study of Mus musculus with 19 samples.

Results

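Ring1B binding at gene starts was compared between mouse embryonic stem cells (ESC) and neural progenitors (NeuP). One ChIP-seq peak list stood on each side. The transcription start site (TSS) of a gene was called bound where it lay within 2 kb of the nearest base of a peak. Of the 24016 transcripts of the RNA table, 3975 (16.6%) had a Ring1B peak in at least 1 of the lists. The start was bound in ESC only for 1468 transcripts, in NeuP only for 2030 and in both for 477, which left 20041 bound in neither. These classes were then set beside the RNA change from ESC to NeuP, which the choice of members had not used.

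The series holds 19 samples of RNA-seq, ChIP-seq and DamID from mouse ESC and NeuP, made to study the nucleoporin Nup153. The ESC of the E14 line were grown on irradiated fibroblast feeders with LIF, and the control ESC used here carried a non-target hairpin from a lentivirus and had been selected with puromycin. The NeuP were derived from ESC through embryoid bodies and Noggin, then grown with FGF2 and EGF. They carried no hairpin, and the labels name no line for them, so hairpin and selection differ between the groups along with cell state and cannot be told apart from it. The RNA comparison used 1 control ESC library, 2 NeuP libraries (replicates 1 and 2) and 2 ESC libraries with the Nup153 hairpins #2 and #4. The hairpin libraries served only for the spread and for the filter that decided which genes were tested. Ring1B was also profiled in ESC with each of those hairpins, and Cbx7, another PRC1 subunit, in control ESC. The RNA libraries held 24.3 to 32.2 M reads, as recovered from the steps of their values. The labels do not say that the libraries came from separate cultures, so p-values measure only the spread between these samples.

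Polycomb repressive complex 1 (PRC1) is built on the ubiquitin ligase Ring1B, encoded by Rnf2, or on its paralog Ring1, and adds ubiquitin to a core histone. It is known for keeping developmental regulators silent in ESC. Canonical PRC1 holds a Cbx protein, which reads the histone mark left by PRC2, whereas variant complexes hold Rybp or Yaf2 and are also found at active CpG-rich promoters. Some PRC1 targets are released when cells enter a lineage, and others are kept silent or taken up anew.

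The sequences of 3 promoters are given as examples, 1 for each class, and do not stand for their classes. Each belongs to the gene of its class with the largest RNA change that had an entry in the RefSeq promoter table (GRCm38.p6). The window is the 250 bases before the start, 5′ to 3′, with CpG dinucleotides in capitals. The positions are chr4:130308488-130308737 for Fabp3, chr10:57784673-57784922 for Fabp7 and chr16:91225300-91225549 for Olig2, all on the plus strand.
Fabp3 (bound in ESC only): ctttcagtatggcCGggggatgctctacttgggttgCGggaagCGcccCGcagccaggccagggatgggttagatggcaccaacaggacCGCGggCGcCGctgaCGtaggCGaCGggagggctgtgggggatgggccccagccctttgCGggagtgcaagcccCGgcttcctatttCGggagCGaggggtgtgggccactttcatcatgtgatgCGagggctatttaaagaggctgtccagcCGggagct
Fabp7 (bound in NeuP only): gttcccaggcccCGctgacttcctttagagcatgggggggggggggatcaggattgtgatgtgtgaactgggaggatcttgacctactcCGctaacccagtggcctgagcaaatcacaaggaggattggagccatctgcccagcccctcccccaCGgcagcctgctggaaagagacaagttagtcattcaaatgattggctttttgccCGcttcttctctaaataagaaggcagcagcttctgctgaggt
Olig2 (bound in both): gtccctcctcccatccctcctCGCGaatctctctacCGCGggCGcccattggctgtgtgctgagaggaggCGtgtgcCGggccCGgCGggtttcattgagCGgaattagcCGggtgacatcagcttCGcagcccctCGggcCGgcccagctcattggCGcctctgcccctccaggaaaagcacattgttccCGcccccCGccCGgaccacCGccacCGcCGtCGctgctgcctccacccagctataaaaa
The Fabp3 window held 17 CpG, the Fabp7 window 4 and the Olig2 window 22, against a median of 6 (quartiles 2 and 16) over all 32851 promoters of the table. Short motifs were searched on both strands. GGCGGGA, an E2F-like motif found in 9.75% of all windows, matched Olig2 at position -62 from the start. TATAAA, the TATA box letters, found in 12.4%, matched Olig2 at position -8. The E-box letters CACGTG are found in 6.02% of all windows and CAGCTG in 13.0%. The SOX-like letters ACAATGG are found in 3.02% and the octamer letters ATGCAAA in 4.12%. None of these 4 had a match in the 3 windows. Promoter composition was not compared between the classes, because only 71.9% of the transcripts bound in ESC only, 78.2% of those bound in NeuP only and 69.4% of those bound in both had an entry.

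Most Ring1B peaks were found in 1 cell state only. The control ESC list held 11916 peaks and the NeuP list 14556. Of the ESC peaks 885 (7.43%, Wilson 95% interval 6.97 to 7.91) shared at least 1 bp with a NeuP peak, and 870 NeuP peaks (5.98%, 5.60 to 6.37) shared 1 with an ESC peak. The other ESC lists overlapped the control list more: 45.2% of the control ESC peaks were found in the hairpin #2 list and 45.5% in the hairpin #4 list. The lists differed in depth and in how far a peak had to rise over background. The control ESC list came from 4.99 M tags with a threshold at 5.99 times the expected tags, and the NeuP list from 33.2 M tags at 2.37 times. The hairpin #2 list, close to NeuP in both (30.8 M tags, 2.46 times), met 12.3% of the NeuP peaks, and any of the 3 ESC lists met 15.1%. The part of depth and threshold in the classes was not tested beyond these lists. Per the file headers an IgG library from ESC was the background for the NeuP peaks too.

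Shared peaks lay at gene starts more often than the rest. Of the ESC peaks shared with NeuP, 38.5% (35.4 to 41.8) lay within 2 kb of a start, against 14.3% (13.6 to 14.9) of the other ESC peaks. In the NeuP list the shares were 37.5% (34.3 to 40.7) and 15.0% (14.5 to 15.7). Cbx7 peaks of control ESC met 44.9% of the ESC peaks shared with NeuP and 24.6% of the other ESC peaks. The 477 starts bound in both were 24.5% of the 1945 ESC-bound starts, and the NeuP list bound 2507 starts in all. At 301 of these 477 starts (63.1%) the nearest peaks of the lists overlapped each other. The intervals cover counting error only, and neighbouring starts can share a peak: the 2030 starts bound in NeuP only rested on 1799 peaks and the 1468 bound in ESC only on 1316.

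NeuP peaks sat closer to the start. The start itself lay inside the peak for 33.7% of the transcripts bound in NeuP only and for 16.8% of those bound in ESC only. At the starts bound in both, 30.2% lay inside the NeuP peak and 19.9% inside the ESC peak. The median peak centre was 106 bp upstream of the start for the NeuP-only class (offset -106) and 26 bp upstream for the ESC-only class (offset -26). These offsets carry a sign, so upstream and downstream peaks cancel and the medians do not measure closeness. The part of depth and threshold, which differed between the lists, was not tested. The longest peaks marked known developmental regulators: 7434 bp at Tfap2a, a neural crest and epidermal factor, in the ESC-only class, and 10090 bp at Sim1, a hypothalamic factor, in NeuP at a start bound in both.

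**Figure D1:**
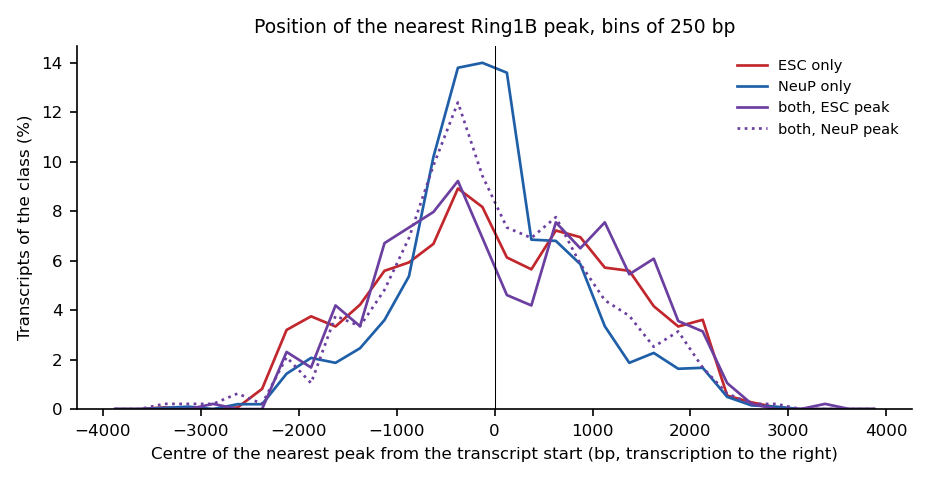
Distance from the transcript start to the centre of the nearest Ring1B peak (x axis, bp, transcription to the right) against the share of transcripts of each class (y axis, %), in bins of 250 bp. The NeuP-only curve is tallest around the start, and the ESC peaks, of both classes that have them, are spread more evenly over the window.

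The 2 kb limit cut through a continuous range. The ESC-bound start farthest inside it was 6330416G13Rik at 1998 bp, with an RNA level of 5.05 FPKM in control ESC and 0.653 and 0.706 FPKM in the NeuP libraries. The nearest start outside was Thbd at 2001 bp, at 0.0320 FPKM in control ESC and listed at 0 in both NeuP libraries. For NeuP the limit fell between Galnt10 at 1994 bp (1.84 FPKM in control ESC, 35.9 and 23.5 FPKM in NeuP) and Ctns at 2001 bp (10.1, 11.8 and 9.48 FPKM). Olig1, described below, lay 1717 bp from an ESC peak and 3002 bp from a NeuP peak, so a 5 kb limit would place it in both.

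Genes bound in ESC only were on average lower in NeuP, and genes bound in NeuP only or in both were higher. RNA was measured as FPKM, fragments per kilobase of transcript and per unit of library size. The median level of the ESC-only class was 3.00 FPKM in control ESC, 1.02 in NeuP replicate 1 and 1.25 in NeuP replicate 2. The NeuP-only class had medians of 5.41, 8.22 and 8.36 FPKM, and the class bound in both had 1.27, 5.00 and 4.66 FPKM. Over all transcripts the medians were 0.830, 0.475 and 0.485 FPKM. Both NeuP libraries moved the same way in each class.

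The change of each gene was fitted on log2(FPKM + 1) with limma over all 13750 genes that reached 1 FPKM in at least 1 library. A gene counts as higher or lower in NeuP at an adjusted p under 0.05. Of all genes tested, 18.3% were higher and 24.9% lower (43.2% either way), and the median difference was -0.26 on the log2 scale. In the ESC-only class 1052 of 1468 transcripts were tested, of which 177 (16.8%) were higher and 418 (39.7%, 36.8 to 42.7) lower, with a median of -0.72. In the NeuP-only class 1718 of 2030 were tested, of which 484 (28.2%, 26.1 to 30.3) were higher and 223 (13.0%, 11.5 to 14.7) lower, with a median of 0.26. In the class bound in both, 346 of 477 were tested, of which 117 (33.8%) were higher and 55 (15.9%) lower, with a median of 0.48. The share of lower genes thus stood above that of all genes in the ESC-only class and below it in the other classes with a NeuP peak.

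**Figure D2:**
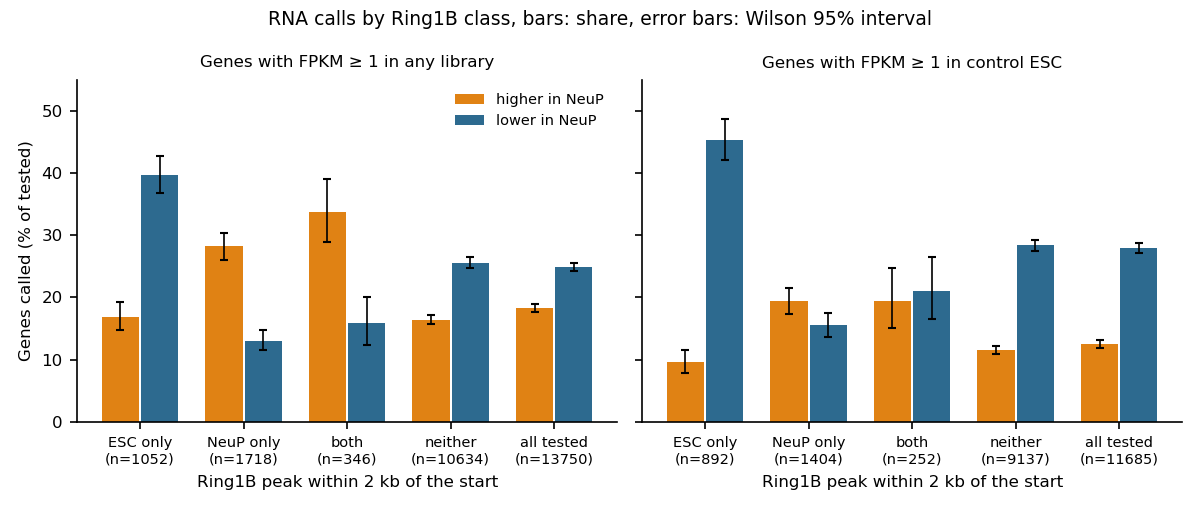
Share of tested genes called higher or lower in NeuP (y axis, %) for each Ring1B class and for all genes tested, with Wilson 95% intervals as error bars. The left panel takes genes with at least 1 FPKM in any library and the right panel those with at least 1 FPKM in control ESC, where 45.4% of the ESC-only class and 15.5% of the NeuP-only class were lower.

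The filter lets a gene in through the cell state where it is high, so the counts were repeated for genes with at least 1 FPKM in control ESC. Of those 11685 genes 12.5% were higher and 28.0% lower in NeuP, with a median of -0.46. The ESC-only class then had 85 higher and 405 lower (45.4%) of 892, with a median of -1.10. The NeuP-only class had 272 higher (19.4%) and 218 lower (15.5%) of 1404, with a median of -0.10, and the class bound in both had 49 higher and 53 lower of 252, with a median of -0.07. The medians of these last classes thus turned from positive to slightly negative, but stood above that of all genes counted the same way. With no filter on low values, which adds genes under 1 FPKM in every library, the medians were -0.23 for ESC only, 0.11 for NeuP only, 0.03 for both and 0.00 for all genes.

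The size of every count rested on the hairpin libraries. Without the hairpin #2 or the hairpin #4 library, 31 or 32 genes of the ESC-only class were higher and 225 or 229 lower, and all genes gave 316 or 318 higher and 1457 or 1472 lower. The NeuP-only class then had 77 higher in either case and 31 or 32 lower. Without NeuP replicate 1 or 2, the same class had 794 or 801 higher and 547 or 597 lower. The NeuP replicates differed by a median of 0.39 (log2) in the ESC-only class, 0.50 in the NeuP-only class and 0.47 in the class bound in both, against 0.09 to 0.10 between the hairpins. Peak length mattered for every class. With peaks of at least 1 kb in both lists, the NeuP-only median went from 0.26 to 1.13 (283 tested genes). The median of the class bound in both went from 0.48 to 1.18 (23 tested genes). The ESC-only class then held 144 tested genes with a median of -0.27, close to that of all genes (-0.26). Of these 144 genes 44 were higher and 51 lower, both above the shares of all genes tested (18.3% and 24.9%).

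Chromosomes 8 and 12 moved with the classes. Chromosome 8 held 7.93% of the control ESC peaks and 2.90% of the NeuP peaks, with 4.76% of the transcripts, and it held 9.60% of the ESC-only class and 2.56% of the NeuP-only class. Chromosome 12 held 6.34% of the ESC and 3.59% of the NeuP peaks. RNA from genes of chromosome 8 had a median difference of -0.71 (252 of 737 lower) and RNA from chromosome 12 of -0.54 (164 of 514 lower). Without both chromosomes the ESC-only class had 339 of 890 genes lower (38.1%) with a median of -0.66, and the NeuP-only class had 463 of 1629 higher (28.4%) with a median of 0.29.

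The share of starts with a NeuP peak was larger the higher the RNA change, whereas the share with an ESC peak was larger at both ends. Among the 256 genes that dropped by more than 4 on the log2 scale, 30.5% (25.2 to 36.4) had an ESC peak and 3.12% (1.59 to 6.04) a NeuP peak. Among the 211 genes that gained more than 4, 21.8% (16.8 to 27.8) had an ESC peak and 49.3% (42.6 to 56.0) a NeuP peak. Genes within 1 of no change had 7.50% and 14.1%. By their level in NeuP, 2.44% of transcripts listed at 0 in both NeuP libraries carried a NeuP peak, against 14.8% of those with a mean of 1 to 10 FPKM and 35.3% of those at 100 FPKM or more. By their level in control ESC, 2.93% of transcripts listed at 0 carried an ESC peak, against 11.0% between 0 and 1 FPKM, 8.89% at 1 to 10, 10.2% at 10 to 100 and 15.3% at 100 FPKM or more, so there was no steady rise between 0 and 100 FPKM.

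**Figure D3:**
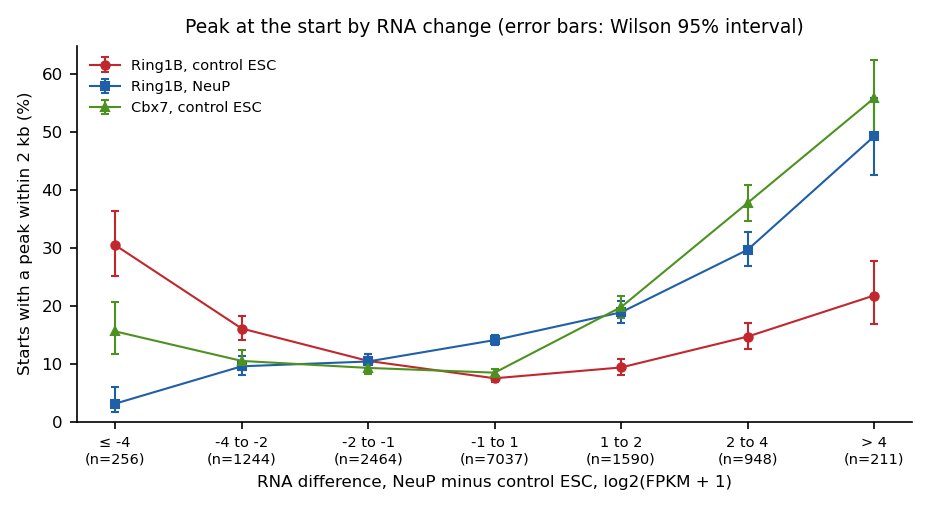
Share of transcript starts with a peak within 2 kb (y axis, %) by the RNA difference between NeuP and control ESC (x axis, log2(FPKM + 1) bins), with Wilson 95% intervals. The NeuP list climbs from 3.12% to 49.3% from left to right, the control ESC list is lowest in the middle bin at 7.50%, and Cbx7 of control ESC reaches 55.9% in the last bin.

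Cbx7, which marks canonical PRC1, split each class into genes that differed in ESC level. In the ESC-only class 338 tested genes had a Cbx7 peak at the start, and the 591 transcripts of that kind had a median of 0.367 FPKM in control ESC; 125 genes (37.0%) were higher and 95 lower in NeuP. The 877 transcripts without Cbx7 had a median of 9.49 FPKM, and of their 714 tested genes 52 (7.28%) were higher and 323 (45.2%) lower. In the NeuP-only class, genes with Cbx7 in ESC had 58.6% of 261 higher and 6.13% lower, whereas those without had 331 of 1457 higher and 207 lower. At starts bound in both, the corresponding counts were 73 of 150 higher with Cbx7 and 44 of 196 without. Genes with Cbx7 but no Ring1B peak in either list gave 327 of 1037 higher and 273 lower. Restricted to genes with at least 1 FPKM in control ESC, the ESC-only class had 42 of 208 higher with Cbx7 and 43 of 684 without, and the NeuP-only class 50 of 129 and 222 of 1275. The lower genes of the ESC-only class then stood close together, with 88 of 208 (42.3%) with Cbx7 and 317 of 684 (46.3%) without. Under the same restriction, genes with Cbx7 but no Ring1B peak in either list were more often lower, with 115 of 641 higher (17.9%) and 248 lower (38.7%). At starts bound in both, 19 of 75 with Cbx7 were higher and 18 lower, and without Cbx7 30 of 177 were higher and 35 lower.

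The 5 largest drops of the ESC-only class went from over 200 FPKM in control ESC to under 2 FPKM in NeuP. Fabp3, a fatty acid binding protein (mm9 chr4:129986022-129992707), was at 454 FPKM in control ESC and at 0.0980 and 0.0650 FPKM in the NeuP replicates. It fell by 8.72 on the log2 scale (SE 0.19, limma adjusted p = 0.00238). Dppa5a, an RNA-binding protein of pluripotent cells with near-identical copies in the genome, was at 432 FPKM against 0.147 and 0.195 FPKM. Fbxo15, an F-box protein long used as an ESC reporter gene, was at 248 FPKM against 0.277 and 0.183 FPKM. Pou5f1, which encodes the core factor Oct4 (mm9 chr17:35642977-35647722), was at 543 FPKM against 1.99 and 1.65 FPKM and fell by 7.59 (SE 0.21, limma adjusted p = 0.00238). Its start lay 498 bp from a Ring1B peak of 501 bp that also appeared in both hairpin lists, and 191415 bp from the nearest NeuP peak. Cdh1, E-cadherin, was at 201 FPKM against 0.0710 and 0.0560 FPKM. For each of these genes the NeuP replicates lay close together and far below all 3 ESC libraries.

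Of 36 pluripotency genes, 18 were bound in ESC only, 2 in NeuP only and none of the listed genes in both. All 18 bound in ESC only were lower in NeuP, with a median of -5.67, a direction that the choice of such genes makes likely. Nanog, a core factor, fell from 246 FPKM to 0.532 and 0.870 FPKM (log2 difference -7.19, SE 0.24, limma adjusted p = 0.00238). Dnmt3l, a cofactor of DNA methylation, Esrrb and Tfcp2l1, nuclear factors of the naive state, fell by 6.73, 6.50 and 6.33. The 16 pluripotency genes bound in neither list were nearly all lower too, 14 of 15 tested with a median of -3.65. Sox2, which serves both ESC and neural progenitors, was bound in NeuP only and was at 49.9 FPKM in control ESC and at 110 and 84.2 FPKM in NeuP (log2 difference 0.93, SE 0.26, limma adjusted p = 0.0564). Of 50 germline genes 6 were bound in ESC only and 5 of them were lower, such as Syce2, a synaptonemal complex protein, at 74.1 FPKM against 0.0830 and 0.602 FPKM. Germline genes with no Ring1B peak in either list fell as well, 36 of 38 tested.

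The 5 largest gains among the 177 higher genes of the ESC-only class had varied roles. Olig1, a basic helix-loop-helix factor of the oligodendrocyte lineage, was at 0.0360 FPKM in control ESC and at 288 and 140 FPKM in NeuP. Its difference was 7.61 on the log2 scale (SE 0.50, limma adjusted p = 0.00332). Tspan12, a tetraspanin, was at 0.588 FPKM against 106 and 134 FPKM, and the uncharacterised transcript BC064078 at 0.0470 FPKM against 75.1 and 90.9 FPKM. Spon1, a secreted adhesion protein, and Kcnd3, a potassium channel subunit, were below 0.02 FPKM in control ESC; Spon1 reached 70.0 and 16.6 FPKM in NeuP and Kcnd3 25.5 and 42.6 FPKM. All 5 carried Cbx7 at the start in control ESC. The replicates disagreed most for Spon1, and the calls of Olig1, Spon1 and Kcnd3 were lost when either hairpin library was left out.

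Of the 7 neural progenitor genes bound in ESC only, 6 were higher in NeuP and none of them lower. Pax6, a factor of the neural tube and eye, was at 0.186 FPKM against 29.0 and 10.4 FPKM. Pou3f3, a POU factor of the brain, was at 0.167 FPKM against 25.6 and 30.1 FPKM (log2 difference 4.63, SE 0.20, limma adjusted p = 0.00238). Sox3, Sox11 and Sox9, of the SOX family, were higher by 4.04, 3.78 and 3.68. The calls of Pax6, Sox3, Sox11 and Sox9 were lost without either hairpin library, whereas that of Pou3f3 was kept. In the same class 3 of 6 tested endoderm genes and 3 of 4 tested mesoderm genes were lower and none of them higher. These are small counts beside 16.8% higher and 39.7% lower of all tested genes of the class. Among the T-box and GATA factors of the class, Gata4 was at 6.95 FPKM in control ESC and at 0 and 0.0120 FPKM in NeuP, Gata2 at 7.26 against 0.163 and 0.331 FPKM, and Tbx3 at 13.0 against 0.00700 and 0.0710 FPKM.

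Of the 5 largest gains in the NeuP-only class, Fabp7, Ptn and Gpm6b were on the neural progenitor and radial glia list, and Lrrn1 and Mlc1 were not. Fabp7, the brain fatty acid binding protein and a classic radial glia marker (mm9 chr10:57504729-57508256), was listed at 0 in control ESC and was at 2454 and 3143 FPKM in NeuP. Its log2(FPKM + 1) difference was 11.44 (SE 0.68, limma adjusted p = 0.00289). Its start lay inside a NeuP peak of 2300 bp and 182081 bp from the nearest control ESC peak, and it carried no Cbx7 peak. Ptn, a secreted growth factor, was at 0.0200 FPKM against 404 and 422 FPKM (log2 difference 8.66, SE 0.29, limma adjusted p = 0.00238). Gpm6b, a membrane glycoprotein of neural cells, was at 0.0130 FPKM against 397 and 314 FPKM. Lrrn1, a leucine-rich repeat protein of neural cells, was at 0.147 FPKM against 318 and 211 FPKM, and Mlc1, an astrocyte membrane protein, at 0.0850 FPKM against 287 and 109 FPKM. The call of Mlc1 was lost without either hairpin library and those of the other 4 were kept.

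Of 38 neural progenitor and radial glia genes, 13 were bound in NeuP only, 9 in both and 7 in ESC only. In the NeuP-only group 10 of 13 were higher and none of them lower, with a median of 4.91. Slc1a3, the glial glutamate transporter, went from 2.41 FPKM to 273 and 321 FPKM (log2 difference 6.45, SE 0.29, limma adjusted p = 0.00238). Tnc, an extracellular matrix protein, went from 0.0780 FPKM to 56.0 and 85.4 FPKM. Ednrb, the endothelin B receptor, went from 0.0100 FPKM to 192 and 89.8 FPKM. Nes, the intermediate filament nestin, was at 6.34 FPKM in control ESC and at 60.3 and 124 FPKM in NeuP, with a call that was lost, like that of Ednrb, without either hairpin library. The progenitor genes bound in neither list had 3 of 9 higher and a median of 1.66. The list was chosen to mark NeuP, so its direction is no separate evidence. Its Ring1B classes were not free of that choice either. Over all transcripts, 2.44% of starts at 0 FPKM in NeuP and 35.3% at 100 FPKM or more carried a NeuP peak.

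The astrocyte markers differed between the NeuP libraries. Aldoc, a glycolytic enzyme enriched in astrocytes, bound in NeuP only, was at 22.6 FPKM in control ESC and at 1564 and 287 FPKM in NeuP, with a call that was lost without either hairpin library. Gfap, the astrocyte filament protein, in the same class, was at 0.0730 FPKM against 173 and 0.563 FPKM and was not called (limma adjusted p = 0.345). Astrocyte markers summed to 373 FPKM in NeuP replicate 1 and 94.5 FPKM in replicate 2, against 45.0 FPKM in control ESC, with 6 and 5 of 6 markers at 1 FPKM or more in the NeuP libraries. In bulk RNA a change in the share of such cells and a change per cell cannot be told apart.

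Genes of the NeuP-only class that went down had smaller changes. Capg, an actin-capping protein, was at 34.7 FPKM in control ESC and at 0.0250 and 0.734 FPKM in NeuP. It fell by 4.74 (SE 0.38, limma adjusted p = 0.00441). Ddit3, a stress-induced factor, was at 233 FPKM in control ESC, 58.8 and 37.9 FPKM in the hairpin libraries and 12.5 and 6.25 FPKM in NeuP, so ESC libraries differed as well. The calls of Capg and Ddit3 were lost without either hairpin library. Ripk4, a kinase of epithelia, Arid3b, a DNA-binding protein, and Lsr, a protein of tricellular junctions, were at 17.6, 19.3 and 16.1 FPKM in control ESC and below 0.3 FPKM in both NeuP libraries. These 3 genes had a Ring1B peak in NeuP, where their RNA was near 0. Ripk4 and Lsr also had a Ring1B peak in the hairpin #2 list and a Cbx7 peak in control ESC. Their RNA was at 12.7 and 11.9 FPKM in the hairpin #2 library. Arid3b had neither peak, and its nearest control ESC Ring1B peak lay at 3388 bp.

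The largest gain among genes bound in both cell states was that of Olig2. This gene, the partner of Olig1 in progenitors and oligodendrocytes (mm9 chr16:91225795-91228922), was at 0.0160 FPKM in control ESC and at 201 and 265 FPKM in NeuP (log2 difference 7.84, SE 0.27, limma adjusted p = 0.00238). Its start lay 12 bp from an ESC peak of 1262 bp and inside a NeuP peak of 1825 bp. Sparcl1, an astrocyte matrix protein, was at 0.0250 FPKM against 462 and 100 FPKM. Pantr1, a noncoding RNA beside Pou3f3, was listed at 0 against 120 and 135 FPKM, and no source used here says whether reads were counted by strand. Tril, a Toll-like receptor accessory protein, was at 0.0150 FPKM against 83.6 and 29.8 FPKM. Cdh2, N-cadherin, was at 0.0340 FPKM against 40.2 and 34.5 FPKM, opposite to Cdh1. The calls of Sparcl1 and Tril were lost without either hairpin library.

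Drops at starts bound in both were smaller and more mixed. Txnip, a thioredoxin-binding protein, was at 1053 FPKM in control ESC and at 59.1 and 9.41 FPKM in NeuP. It fell by 5.40 (SE 1.15, limma adjusted p = 0.0311). Igf2bp1, an oncofetal RNA-binding protein, was at 29.9 FPKM against 0.0220 and 0.0590 FPKM (log2 difference -4.89, SE 0.17, limma adjusted p = 0.00238), and its NeuP peak was 5413 bp long against 640 bp in ESC. Upp1, uridine phosphorylase, was at 108 FPKM against 3.77 and 12.9 FPKM. Mov10, an RNA helicase, was at 35.6 FPKM against 2.48 and 2.50 FPKM, and Fblim1, an adhesion protein, at 15.2 FPKM against 0.216 and 1.59 FPKM. The calls of Txnip, Upp1 and Fblim1 were lost without either hairpin library, and those of Igf2bp1 and Mov10 were kept.

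**Figure D4:**
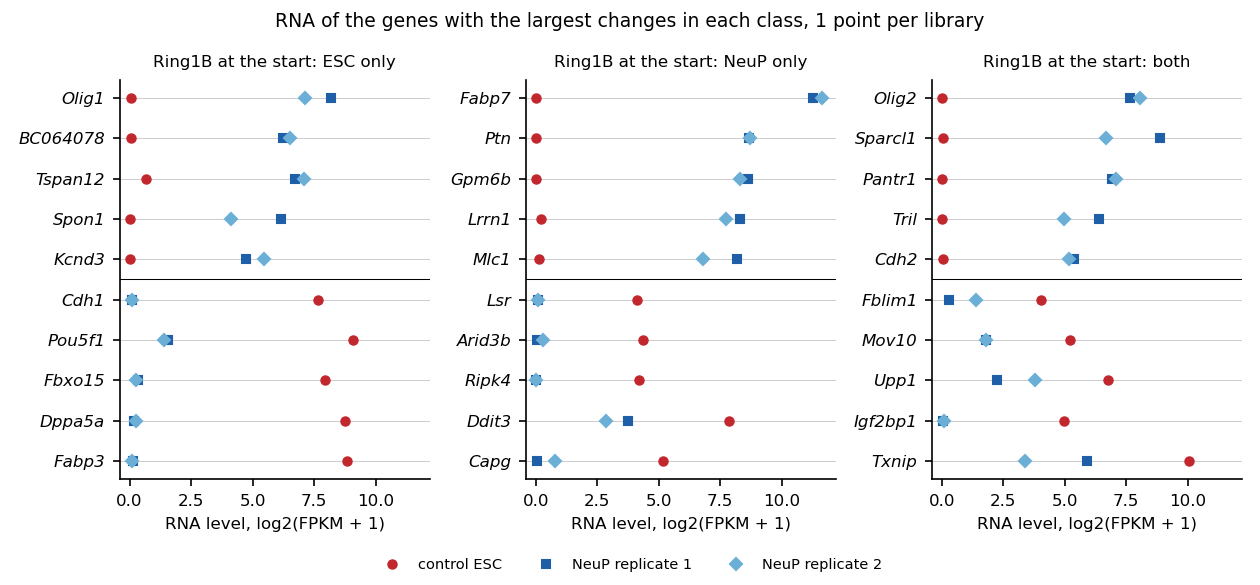
RNA level (x axis, log2(FPKM + 1)) of the 5 genes with the largest gain and the 5 with the largest drop among called genes of each Ring1B class, with 1 point for the control ESC library and 1 for each NeuP replicate. The control point stands apart from both NeuP points for all 30 genes, which follows from how they were chosen. The NeuP points are widest apart for Txnip, Sparcl1 and Spon1.

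Of the HOX genes 76.9% and of the other homeobox regulators 76.4% had Ring1B at the start in at least 1 list, against 16.6% of all transcripts. Of 39 HOX genes, which pattern the body axis, 16 were bound in both, 9 in ESC only, 5 in NeuP only and 9 in neither. In the deeper hairpin #2 list all 39 were bound, and 38 had Cbx7 in control ESC, so the 14 HOX genes that the control list lacked all changed class with the ESC list used. Only 12 HOX genes reached 1 FPKM in any library, of which 5 were higher and 5 lower. The 5 higher genes were the 2 tested members bound in ESC only and the 3 bound in both, whereas the lower ones were 4 of the 6 tested members bound in neither and Hoxd8, bound in NeuP only. Hoxa2, an anterior HOX gene of the hindbrain, was at 0.245 FPKM in control ESC and at 23.1 and 20.8 FPKM in NeuP (log2 difference 4.20, SE 0.17, limma adjusted p = 0.00238), bound in both. Hoxa3 and Hoxb2 were higher by 2.26 and 1.38. Without either hairpin library the call of Hoxa2 was kept and those of the other 5 called HOX genes with a Ring1B peak were lost. The remaining HOX genes, 27 of 39, stayed under 1 FPKM in all 5 libraries whether bound in both, in 1 or in neither list.

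Of 110 other homeobox regulators, 39 were bound in both, 38 in ESC only and 7 in NeuP only, and the hairpin #2 list held 104. In the class bound in both, 10 were tested, of which 6 were higher and 3 lower. Meis1, a HOX cofactor, was at 0.794 FPKM against 36.5 and 30.4 FPKM (log2 difference 4.26, SE 0.20, limma adjusted p = 0.00242). Prrx1, a mesenchymal factor, was at 0.0160 FPKM against 16.6 and 16.8 FPKM. En1 and En2, the engrailed factors of midbrain and hindbrain, were higher by 2.69 and 2.54. Otx2, a factor of forebrain, midbrain and the primed epiblast, was at 5.83 FPKM in control ESC and listed at 0 in both NeuP libraries. All these genes had Cbx7 in control ESC, and their calls were kept whichever library was left out. In the ESC-only class the homeobox genes were split as well, with 5 higher and 6 lower of 13 tested.

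Other families of developmental factors differed in their counts, which stand beside 18.3% higher and 24.9% lower of all genes tested. Of 9 PAX genes 5 were bound in ESC only and 3 in both, and of 4 tested 2 were higher and none of them lower. Pax3, a dorsal neural tube factor bound in both, was at 0.0100 FPKM against 11.4 and 13.6 FPKM. Of 22 T-box and GATA genes 7 were bound in ESC only and 6 in both, and of 11 tested 2 were higher and 8 lower. Of the 6 bound in both, Gata6, Gata3 and Eomes, factors of endoderm, trophoblast and mesoderm, were lower by 2.53, 1.29 and 1.18 (log2 differences -2.53, -1.29 and -1.18), whereas Tbx15 and Tbx18 were higher by 2.61 and 2.09, with calls lost without either hairpin library. Of 18 SOX genes 7 were bound in ESC only, and of 15 tested in all 9 were higher and 1 lower. Sox8, a glial factor bound in NeuP only, was at 0.316 FPKM against 149 and 101 FPKM (log2 difference 6.55, SE 0.32, limma adjusted p = 0.00247). Of 44 forkhead genes 10 were bound in ESC only, 4 in NeuP only and 8 in both, and 2 of 23 tested were higher and 3 lower, both below the share of all genes. Foxh1, the Nodal-responsive forkhead factor, was at 33.3 FPKM in control ESC against 0.0460 and 0.0610 FPKM. Of 38 basic helix-loop-helix genes 20 were tested, of which 8 were higher and 3 lower. Of these genes 8 were bound in both, where 4 of 7 tested were higher, among them Hey1, a Notch target, at 1.04 FPKM against 40.4 and 32.5 FPKM.

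**Figure D5:**
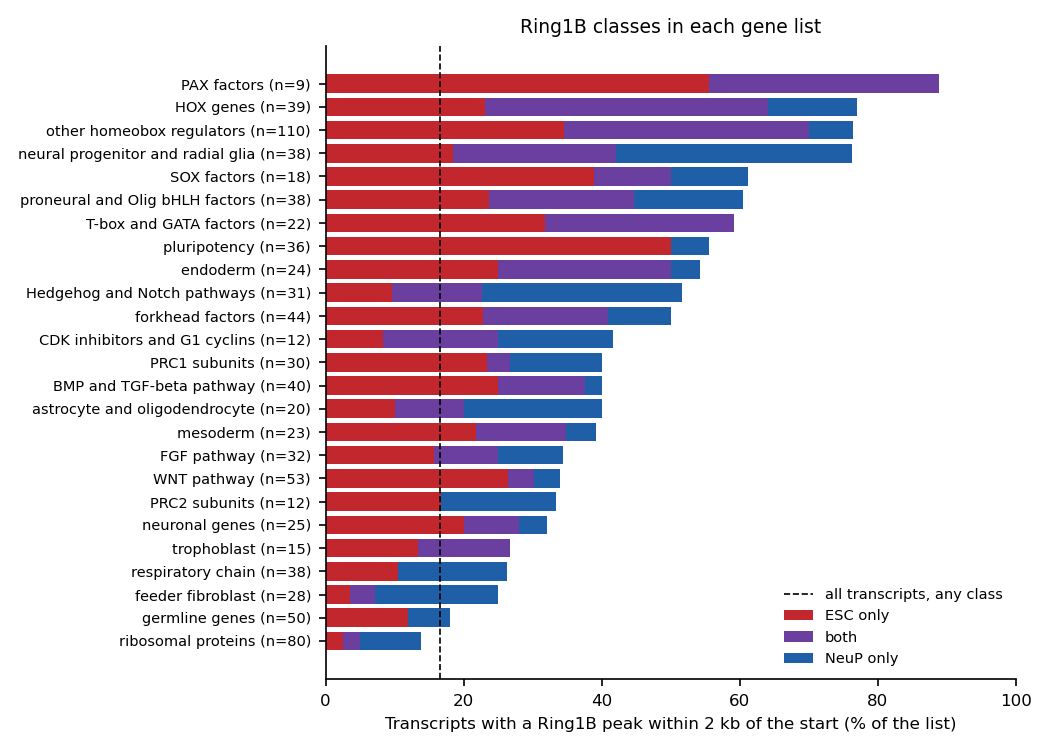
Share of each gene list with a Ring1B peak within 2 kb of the start (x axis, %), split into ESC only, both and NeuP only, with the number of transcripts beside each name and the share over all transcripts, 16.6%, as a dashed line. Developmental regulators reach the top, pluripotency genes are bound almost only in ESC, and ribosomal proteins lie under the line at 13.8%.

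The signalling lists are given by class, and no difference between pathways was tested. Of 31 Hedgehog and Notch genes 9 were bound in NeuP only, 4 in both and 3 in ESC only. With the hairpin #2 list for ESC, 7 of the NeuP-only genes became bound in both. In the NeuP-only group 4 of 9 were higher, none of them lower, and the median was 2.39. Gas1, a Hedgehog co-receptor, was at 1.40 FPKM against 39.2 and 51.5 FPKM (log2 difference 4.26, SE 0.24, limma adjusted p = 0.00271), and Lfng, which modifies Notch, at 0.901 FPKM against 25.5 and 22.5 FPKM. Notch1, the receptor, was at 6.66 FPKM against 63.7 and 23.9 FPKM and was not called (limma adjusted p = 0.0523). Of 53 WNT genes 14 were bound in ESC only, 2 in NeuP only and 2 in both, and 21 moved from neither to ESC only with the hairpin #2 list. Of all 35 WNT genes tested 13 were higher and 10 lower, against 18.3% and 24.9% of all genes, with 2 higher and 3 lower of 9 in the ESC-only group. Wnt7a, a ligand of the neural tube, bound in both, was at 0.0620 FPKM against 5.45 and 4.08 FPKM. Of 40 BMP and TGF-beta genes 10 were bound in ESC only. These included Tgfb2, a ligand, at 0.0750 FPKM against 8.99 and 8.92 FPKM, and Nodal, a ligand of the early embryo, at 9.07 FPKM in control ESC and listed at 0 in both NeuP libraries. Among 32 FGF pathway genes the feedback inhibitor Spry2, bound in NeuP only, was at 6.04 FPKM against 126 and 202 FPKM, and Dusp6, a phosphatase bound in both, at 2.53 FPKM against 27.2 and 67.3 FPKM. The calls of Wnt7a, Spry2 and Dusp6 were lost without either hairpin library.

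Markers of other cell types and housekeeping genes were checked beside these groups. Of 25 neuronal genes 5 were bound in ESC only, 1 in NeuP only and 2 in both. Of 19 tested 7 were higher and 4 lower, against 18.3% and 24.9% of all genes tested, with a median of 0.84. The 8 neuron markers summed to 76.7 FPKM in control ESC and to 245 and 135 FPKM in NeuP. Most of the control ESC sum came from Stmn2 and most of the NeuP sums from Map2. Map2, a dendritic protein bound in neither list, was at 0.487 FPKM against 224 and 118 FPKM. Stmn2, a neuronal microtubule regulator bound in ESC only, was at 67.6 FPKM in control ESC against 0.377 and 0.565 FPKM. Of 24 endoderm genes 6 were bound in ESC only, 1 in NeuP only and 6 in both; of 23 mesoderm genes 5, 1 and 3; of 15 trophoblast genes 2, 0 and 2. Of 28 feeder fibroblast genes 1 was bound in ESC only, 5 in NeuP only and 1 in both. The 8 defining fibroblast markers summed to 5.87 FPKM in control ESC and to 39.0 and 95.2 FPKM in NeuP. Of 80 ribosomal protein genes 2, 7 and 2 fell into the classes (13.8% bound in all). Of 79 tested 49 were lower, against 24.9% of all genes tested. The lower ones were 2 of 2 in ESC only, 4 of 7 in NeuP only, 2 of 2 in both and 41 of 68 in neither. Reads of ribosomal protein genes can be shared with processed copies. Of 38 respiratory chain genes 4, 6 and 0 were bound. Of 12 CDK inhibitors and G1 cyclins 1, 2 and 2 were bound, and Ccnd2, a G1 cyclin bound in both, was at 6.11 FPKM against 15.0 and 163 FPKM with no call (limma adjusted p = 0.203).

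The cell states themselves were clear from their markers. The 8 ESC markers summed to 1754 FPKM in control ESC and to 3.48 and 3.82 FPKM in NeuP, and the 9 neural progenitor markers to 9.97 FPKM against 3419 and 4274 FPKM. Of the 8 ESC markers 7 had a Ring1B peak in ESC only. Of the 9 progenitor markers 4 had one in NeuP only, 3 in ESC only and 1 in both.

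Rnf2, which encodes Ring1B, was at 58.6 FPKM in control ESC and at 30.7 and 38.4 FPKM in NeuP (log2 difference -0.75, SE 0.24, limma adjusted p = 0.0755) and had no peak at its own start. Its paralog Ring1, bound in NeuP only, was at 4.26 FPKM against 8.25 and 5.59 FPKM. Cbx7, the main Cbx subunit of ESC, bound in ESC only, was at 38.1 FPKM against 2.07 and 1.84 FPKM (log2 difference -3.73, SE 0.19, limma adjusted p = 0.00251). Bmi1, a PCGF subunit, bound in ESC only, was at 4.52 FPKM against 36.7 and 37.3 FPKM (log2 difference 2.78, SE 0.19, limma adjusted p = 0.00351). Phc1, a polyhomeotic subunit and the single PRC1 gene of the list bound in both, was at 84.0 FPKM against 23.1 in each NeuP replicate. Of the 30 PRC1 genes 5 were higher and 8 lower, near the share of all genes tested (18.3% and 24.9%), with a median of -0.29 against -0.26. Of 12 PRC2 genes 5 were lower and none of them higher, among them Jarid2, an accessory subunit bound in ESC only, with a log2 difference of -1.40 (SE 0.33, limma adjusted p = 0.0385), and Suz12, a core subunit bound in NeuP only, with one of -1.92 (SE 0.50, limma adjusted p = 0.0498). The calls of Bmi1, Phc1, Jarid2 and Suz12 were lost without either hairpin library and that of Cbx7 was kept.

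The other ESC lists show how far the classes hold. Of the starts bound in both, 86.8% were also bound in at least 1 hairpin list, and of those bound in ESC only 72.0%. Of the starts placed in NeuP only, 46.9% had a Ring1B peak in a hairpin list, against 19.4% of the starts bound in neither. With the hairpin #2 list in place of the control list, 899 starts moved from NeuP only to both, and 1207 stayed in NeuP only or joined it, with 264 higher and 125 lower of 992 tested. The ESC-only class grew to 4455 starts with 612 higher and 973 lower of 3251 tested and a median of -0.38. Among the neural progenitor genes 10 of the 13 NeuP-only members became bound in both, so that Fabp7, Ptn and Tnc were left as bound in NeuP alone. These cells carry a hairpin against Nup153, so their lists are not repeats of the control.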

How the data were processed

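RNA levels are the deposited FPKM values of 24016 RefSeq transcripts, which the authors made from RNA-seq reads. Per the submitters' processing notes the tools were CASAVA 1.8.2, STAR 2.2.0c, Bowtie2 2.1.0, HOMER 4.6 and edgeR, with build mm9, and which tool served which data type is not given there. Ring1B and Cbx7 ChIP-seq peaks were deposited as position lists, and per the file headers each was called by HOMER findPeaks in histone style against an IgG library of ESC, from 1 library a list. Tag totals and thresholds are per the file headers.

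A start was bound where the nearest base of a peak lay within 2 kb, with peaks sharing at least 1 bp counted as overlapping. RNA was tested on log2(FPKM + 1) with limma 3.58.1 in R 4.3.3 over 5 libraries in 3 groups (1 control ESC, 2 hairpin ESC, 2 NeuP), for the 13750 genes at 1 FPKM or more in at least 1 library, with Benjamini-Hochberg adjustment over all of them, two-sided. Of the low values 100% came out as whole reads within 0.1 read, and a count-based fit is an alternative. The method was tested on simulated data. Intervals are Wilson 95% intervals. Genes named by size are the 5 largest gains and the 5 largest drops among called genes of each class whose NeuP replicates shared the sign. List members were described by the size of their change among called members, with a few more named after their values were seen. The members, gene lists and tests were chosen with earlier results of these data known. Promoter letters are from RefSeq (GRCm38.p6), and peak sequences were not used here. One gene is not reported here.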

Additional observations from a re-analysis of the deposited data

How the results depend on the processing

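Which starts fall into a class depends first on the peak lists. With a limit of 5 kb, 793 starts were bound in both, with 111 genes lower. With peaks of at least 1 kb the classes held 223 starts bound in ESC only (44 genes higher, 51 lower), 345 in NeuP only (120 higher, 32 lower) and 67 in both (10 higher, 7 lower). With the hairpin #2 list for ESC they held 4455 (612 higher, 973 lower), 1207 (264 higher, 125 lower) and 1300 (337 higher, 153.0 lower). With any of the 3 ESC lists they held 5360 (687 higher, 1231 lower), 1078 (235 higher, 101 lower) and 1429 (366 higher, 177 lower). With all 3 required they held 560 in ESC only (79 higher, 144 lower) and 282 in both (61 higher, 29 lower). The share of ESC peaks shared with NeuP was 5.61% where 50% of the peak had to be covered, 9.81% for peaks of at least 1 kb and 10.6% for the hairpin #2 list. The share of NeuP peaks was 3.83%, 3.96%, 12.3% and, for any ESC list, 15.1%.

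Counts of called genes depend on the libraries that set the spread. With the control and NeuP libraries only, which leaves fewer samples, 228 of all genes were higher and 1413 lower, with 23 and 227 in the ESC-only class, 59 and 33 in the NeuP-only class and 23 and 13 in both. Leaving out 1 library at a time gave 316 to 4565 higher and 1457 to 6658 lower over all genes. It gave 31 to 288 higher and 225 to 630 lower in ESC only, 77 to 801 and 31 to 597 in NeuP only, and 30 to 187 and 16 to 110 in both. Where 1 NeuP library is left, it is assumed to vary like the other groups. Among genes with at least 1 FPKM in control ESC, an alternative chosen after seeing the data, 85, 272 and 49 genes of the classes were higher, and the medians of the NeuP-only class (-0.10) and of both (-0.07) reversed. With no filter on low values 456 of 595 calls in ESC only, 467 of 707 in NeuP only and 118 of 172 in both were kept, and the class medians came to -0.23, 0.11 and 0.03. Quantile normalization moved the median of all genes from -0.26 to -0.06 and left each class on its side of it, at -0.52, 0.46 and 0.68. Fitting the recovered reads with voom called 2611 genes higher and 3270 lower and kept 575 of 595 calls in ESC only, 667 of 707 in NeuP only and 168 of 172 in both. No paired analysis was possible because the control has 1 library and its label shares no number with the NeuP libraries. Promoter composition by class was not run, since too few starts had an entry. With 1 peak list a side, peak differences have no replicate check.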

Other observations

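The nuclear basket nucleoporin Nup153, profiled by DamID in ESC, gives a further split of the classes. Of the 1468 starts bound by Ring1B in ESC only, 322 lay within 2 kb of a Nup153 DamID peak of the deposited list. Of those genes 266 were tested. Among them 29 were higher in NeuP and 144 (54.1%, 48.1 to 60.0) lower, with a median of -1.32. Of the 786 tested genes without such a peak, 148 were higher and 274 (34.9%, 31.6 to 38.3) lower, with a median of -0.53. Genes with a DamID peak were also more often lower in NeuP only, 23.6% against 11.8%, and in neither, 35.4% against 24.9%. At starts bound in both, the intervals of the lower share overlapped, at 12.5 to 27.8% with a DamID peak and 10.8 to 19.6% without. The levels differed as well: in the ESC-only class the median in control ESC was 9.18 FPKM with a DamID peak and 2.02 FPKM without. The part of the level in the difference was not tested. The Oct4 DamID list split the ESC-only class and the starts bound in neither in a similar way. In ESC only, 50.3% of tested genes were lower with an Oct4 DamID peak (median -1.36) and 37.7% without (-0.63). The shares were 38.9% and 25.3% in neither, 14.9% and 12.9% in NeuP only and 18.6% and 15.5% in both. The ESC-only median in control ESC was 13.2 FPKM with an Oct4 DamID peak and 2.17 FPKM without.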
